A study of Homo sapiens with 43 samples.

Results

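The RNA sites of 2 cytoplasmic messenger RNA binders, FMR1 and LIN28, were compared in HEK293T, a cell line derived from human embryonic kidney. The members are the peak lists of 4 libraries, of 25 libraries with a list in the series: FMR1 wt-eCLIP and FMR1 FLAG-eCLIP on one side, LIN28 wt-eCLIP and LIN28 V5-eCLIP on the other. They were chosen by their labels and not by any measured value, although earlier results of these data were known. eCLIP crosslinks proteins to RNA with ultraviolet light, trims the RNA with RNase I, immunoprecipitates the protein and sequences the RNA recovered from a gel slice above it. The wild-type libraries used antibodies against FMR1 (MBL) or LIN28 (Bethyl) in cells without a tag, and the tagged libraries used antibodies against FLAG (Sigma) or V5 (Bethyl) in cells whose own gene carries the tag, integrated with CRISPR/Cas9. All groups share the cell line, the ultraviolet dose and the protocol. The paralog of LIN28 is not stated in the labels, nor whether a tagged line is 1 clone, nor whether libraries came from separate cultures. Each protein and tag state had 1 library, so there is no replicate error, and intervals cover counting error over peaks or regions only. The cell line could not be checked against marker genes, because the lists name no genes.

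FMR1 is the protein lost in fragile X syndrome. It associates with polyribosomes and is known for binding along the coding sequence of long messenger RNAs and for slowing their translation. LIN28 is known for binding the precursors of let-7 microRNAs and blocking their maturation, and it also binds many messenger RNAs, often at GGAG-like motifs in short loops. Both proteins act largely in the cytoplasm on mature transcripts.

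Each list gives a position, a strand, the authors' −log10 p and the authors' log2 fold of the immunoprecipitation over its input. A peak with both values at 3 or above, an 8-fold enrichment, is called significant here. FMR1 wild type had 3072 significant peaks (5.23% of 58685 called) and FMR1 FLAG had 17354 (17.2% of 100860). LIN28 wild type had 2020 (4.73% of 42707) and LIN28 V5 had 7780 (10.6% of 73182). The tagged list was thus the longer one for both proteins, and FMR1 FLAG alone held more significant peaks than the other 3 libraries together. Significant FMR1 peaks had a median width of 43 nt in wild type and 44 nt in FLAG, and significant LIN28 peaks had 54 nt in wild type and 51 nt in V5. The highest log2 fold was 5.86 in FMR1 wild type, 7.89 in FMR1 FLAG, 9.75 in LIN28 wild type and 10.48 in LIN28 V5, so the strongest LIN28 sites stood further above their input than the strongest FMR1 sites did above theirs. Mitochondrial RNA was nearly absent from the significant peaks, with 1 peak in each FMR1 library, 3 in LIN28 V5 and 0 in LIN28 wild type. Read depth is unknown, since the lists hold no counts.

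At this threshold, most significant peaks of either protein overlapped no significant peak of the other. Significant peaks of the 4 lists that overlapped or adjoined on a strand were merged into 22642 regions. A region is called reproducible for a protein when both of its libraries have a significant peak in it. There were 1912 reproducible FMR1 regions and 1505 reproducible LIN28 regions, and only 57 were reproducible for both and are called shared. A further 1716 were FMR1 private, meaning significant in both FMR1 libraries and in neither LIN28 library, and 1263 were LIN28 private in the same sense. Shared regions were thus 2.98% of the reproducible FMR1 regions (95% Wilson interval 2.31% to 3.84%) and 3.79% of the reproducible LIN28 regions (2.93% to 4.88%). The shared class needs a significant peak in each of the 4 lists. Its size therefore also depends on how far the libraries of a protein agree.

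Dropping the demand for both libraries widened the common ground but did not make it large. A significant peak of any LIN28 library lay in 196 reproducible FMR1 regions, or 10.3% (8.97% to 11.7%), and a significant peak of any FMR1 library lay in 242 reproducible LIN28 regions, or 16.1% (14.3% to 18.0%). Over all regions, 982 had a significant peak of both proteins. That is 5.79% of the 16951 regions with FMR1 and 14.7% of the 6673 with LIN28. The largest group among the 982 was significant in the tagged libraries only, FMR1 FLAG and LIN28 V5, with 538 regions. A further 167 regions had both LIN28 libraries with FMR1 FLAG alone, and 127 had both FMR1 libraries with LIN28 V5 alone. The wild-type libraries without a tagged one shared just 3 regions.

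**Figure D1:**
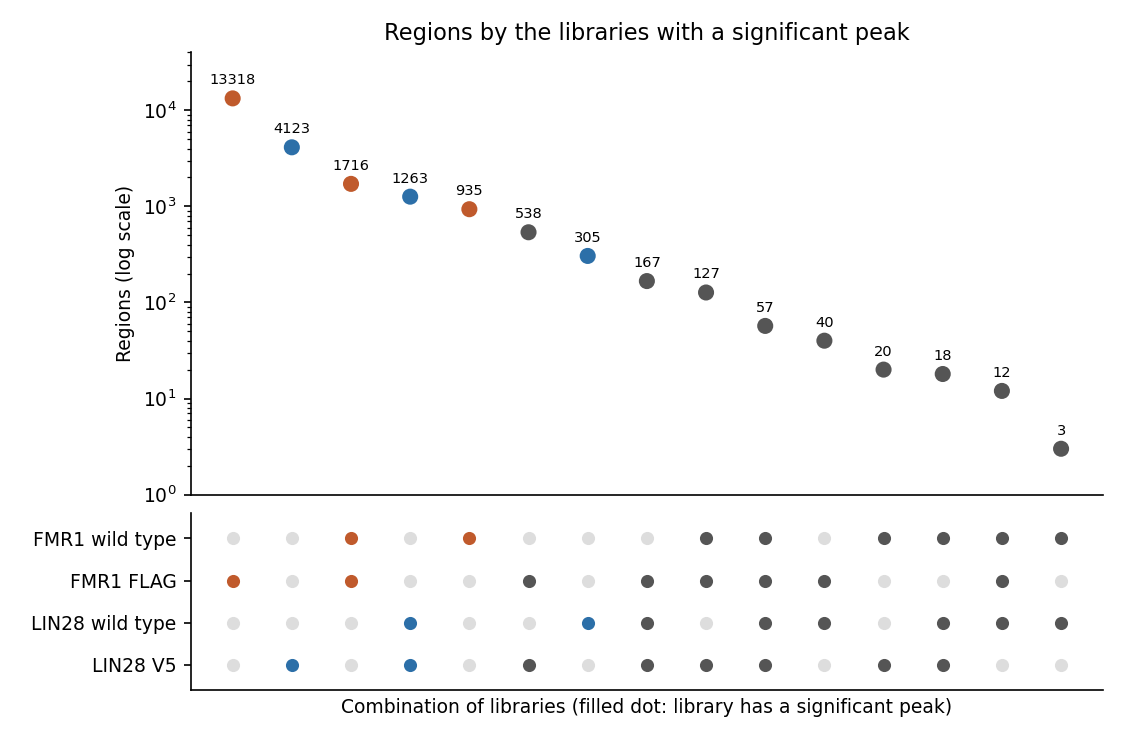
Number of merged regions (log axis) for each combination of the 4 libraries with a significant peak in the region. Colour marks FMR1 alone (orange), LIN28 alone (blue) or both (grey). Regions of a single tagged library lead with 13318 and 4123, the private classes follow with 1716 and 1263, and 57 regions are significant in all 4 libraries.

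Counted peak by peak, each library overlapped the other protein less often than the other library of its own protein. FMR1 wild-type peaks overlapped FMR1 FLAG in 67.3%, and FMR1 FLAG peaks overlapped the shorter FMR1 wild-type list in 13.2%. LIN28 wild-type peaks overlapped LIN28 V5 in 81.8%, and LIN28 V5 peaks overlapped LIN28 wild type in 28.8%. Of FMR1 wild-type peaks, 8.27% (7.35% to 9.30%) overlapped a significant LIN28 peak of either library by at least 1 nt on the same strand. Among FMR1 wild-type peaks that were not significant, the share was 3.34%. In FMR1 FLAG it was 6.37% (6.01% to 6.74%) against 2.9% of peaks that were not significant. LIN28 peaks met FMR1 more often, although FMR1 also had the longer lists. The share was 14.5% (13.0% to 16.1%) in LIN28 wild type against 8.08% of peaks that were not significant, and in LIN28 V5 it was 1089 of 7780 peaks (13.2% to 14.8%) against 6.92%. In each of the 4 libraries, significant peaks therefore met the other protein more often than the weaker peaks of the same list did. On the opposite strand, 0 significant peaks of any of the 4 libraries overlapped a significant peak of the other protein, with upper 95% Wilson limits from 0.0221% in FMR1 FLAG to 0.190% in LIN28 wild type.

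Averaged over both directions and over the pairs of libraries, overlap was 47.8% within a protein and 6.5% between proteins, a difference of 41.3 percentage points. The 4 libraries can be split into pairs in 3 ways, and pairing by protein gave the highest difference of the 3 (p = 0.333 by a one-sided exact permutation test, which cannot go lower with so few libraries). When each list was limited to its 1000 top peaks by fold, the difference was 30.0 points. The shares overlapping the other protein were then 2.7% in FMR1 wild type, 1.8% in FMR1 FLAG, 2.5% in LIN28 wild type and 3.1% in LIN28 V5, so the higher share of LIN28 was not kept in lists of equal length.

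FMR1 overlapped LIN28 more often than it overlapped the other proteins of the series, which act in the nucleus. FMR1 wild-type peaks overlapped LIN28 V5 peaks in 7.58% (6.70% to 8.57%) and LIN28 wild-type peaks in 2.83%, but the 2 RBFOX2 lists in 0.391% each and the 2 DGCR8 lists in 0.228% and 0.651%. RBFOX2 is a splicing regulator, and DGCR8 is the partner of DROSHA in microRNA processing. The share was 0.228%, 0% and 0.0326% with the 3 lists of HNRNPC, a binder of nascent transcripts. LIN28 V5 peaks overlapped FMR1 FLAG in 13.3% (12.6% to 14.1%) and FMR1 wild type in 3.15%, against 0.450% and 0.488% for RBFOX2 and 0.231% and 0.334% for DGCR8. These lists differ in length, so the shares are not on an equal footing, and the difference was not tested.

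Most private regions held no called peak of the other protein, which at unknown depth does not show that the protein was absent. Regions with a significant peak of the other protein are left out by definition. The same share over all called peaks is not given here, so these values are not a trait particular to private regions. LIN28 wild type had no called peak of any fold at 76.0% of FMR1 private regions, and LIN28 V5 had none at 65.6%. Taking the LIN28 libraries together, 973 of the 1716 FMR1 private regions, or 56.7% (54.3% to 59.0%), held no called LIN28 peak. FMR1 wild type had no called peak at 78.7% of LIN28 private regions and FMR1 FLAG none at 66.6%, and 772 of the 1263, or 61.1% (58.4% to 63.8%), held no called FMR1 peak at all. Where a peak had been called, its fold was mostly above input. The rule for private regions leaves out significant peaks of the other protein, so high folds are mostly excluded there. The highest of the overlapping peaks was taken, which favours higher folds. At FMR1 private regions the median log2 fold was 1.59 in LIN28 wild type (412 regions called) and 1.90 in LIN28 V5 (591 called). At LIN28 private regions it was 1.49 in FMR1 wild type (269 called) and 2.01 in FMR1 FLAG (422 called). Negative folds were found in 9 and 16 FMR1 private regions and in 8 and 9 LIN28 private regions. Over all called peaks, folds were negative in 5.96% in LIN28 wild type and 10.4% in LIN28 V5. In FMR1 wild type and FMR1 FLAG they were negative in 7.64% and 4.56%.

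Some private calls sat close to the threshold. The LIN28 V5 fold was from 2 to under 3 on the log2 scale in 251 FMR1 private regions, and it was 3 or above with too small a −log10 p in 25. FMR1 FLAG had a log2 fold from 2 to under 3 in 190 LIN28 private regions, and 3 or above with too small a −log10 p in 22. With the threshold at a log2 fold of 2 in all lists, the shared class grew to 237 regions beside 3656 FMR1 private and 1705 LIN28 private regions.

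**Figure D2:**
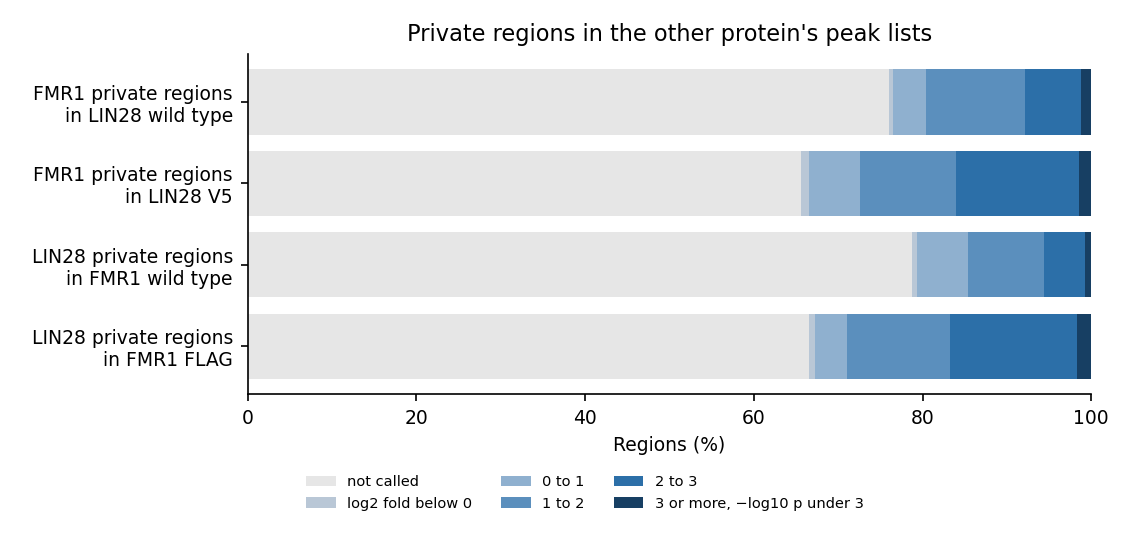
Share of FMR1 private regions (1716) and LIN28 private regions (1263) by the highest log2 fold of a called peak of the other protein, one bar per library of that protein. The pale part, regions with no called peak, runs from 65.6% in LIN28 V5 to 78.7% in FMR1 wild type.

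The strongest private LIN28 regions were far above any FMR1 signal. The leading place at chr11:17098715-17098755 (minus strand, 41 nt, hg19 as in all positions here) had a log2 fold of 9.75 in LIN28 wild type and 10.20 in LIN28 V5. The FMR1 folds there were 1.10 and 1.29, neither of them significant. DGCR8 wild type was also significant there. A region of 85 nt at chr16:1878196-1878280 (plus strand) had 8.46 and 7.58 in LIN28 and no called FMR1 peak. A region of 201 nt at chr17:73774339-73774539 (minus strand) had 7.55 and 8.17 in LIN28 against 0.59 and 0.88 in FMR1. The region at chr19:49119987-49120081 (minus strand) had 7.53 and 8.91 against 0.38 and 1.35. All 4 of these regions had 0 significant peaks in the 14 tag-only libraries, which were made with a FLAG or V5 antibody, name no RNA-binding protein and are used here as background. The next region at chr1:154201104-154201201 (plus strand) had 7.76 and 7.40 in LIN28. Its FMR1 FLAG fold of 2.77 lay just under the threshold, it was significant in 1 tag-only library, and at a threshold of 2 it was no longer private.

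The strongest private FMR1 regions were lower in fold. The leading one lay at chr1:115259862-115259896 (minus strand, 35 nt), with a log2 fold of 5.86 in FMR1 wild type and 6.90 in FMR1 FLAG. LIN28 V5 had a peak of 2.46 there with a −log10 p of 2.83, and LIN28 wild type had none. HNRNPC wild type was significant at this region as well. A region at chrX:41057914-41057945 (plus strand) had 5.40 and 5.30, one at chr2:54871605-54871720 (plus strand) had 5.23 and 5.74, and one at chr6:90353120-90353189 (minus strand) had 5.23 and 5.42. LIN28 had no called peak in these last 3. When peaks up to 50 nt apart were merged, however, the chromosome 2 region was joined to a significant LIN28 peak and was no longer private. A region of 26 nt on the minus strand of chromosome 8 completed the list with 5.09 and 6.17, beside 1.13 in LIN28 V5. None of the 5 was significant in any of the 14 tag-only libraries. Each was 1 of several FMR1 regions nearby, with 9, 30, 17, 11 and 20 reproducible regions in its stretch, whereas the 5 leading LIN28 regions stood in stretches of 2, 1, 3, 3 and 1. A stretch is a run of regions on a strand with gaps of at most 10 kb.

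This contrast in layout extended to the whole of both region sets. Many FMR1 regions came in long runs, and reproducible LIN28 regions mostly stood alone. The same shares over all called peaks are not given here. The 1912 reproducible FMR1 regions fell into 705 stretches, of which 423 held a single region. Of the regions, 51.6% lay in the 87 stretches of 5 or more. The 1505 reproducible LIN28 regions fell into 1201 stretches, of which 973 held a single region, and 1.99% lay in the 5 stretches of 5 or more. For FMR1, 77.9% of regions had another reproducible FMR1 region within reach, and for LIN28 35.3%. Stretches of 10 or more regions numbered 35 for FMR1 and 0 for LIN28. With regions at tag-only sites taken out, 32.4% of 1082 FMR1 regions and 0.467% of 1285 LIN28 regions were in stretches of 5 or more.

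The contrast in long runs was also present library by library. Regions in stretches of 5 or more made up 53.9% in FMR1 wild type and 67.3% in FMR1 FLAG, against 2.72% in LIN28 wild type and 14.9% in LIN28 V5. Regions with a neighbour within reach were 78.5% and 88.0% for FMR1, 39.7% in LIN28 wild type and 61.2% in LIN28 V5, so that most regions of the LIN28 V5 list did not stand alone. Longer lists fill stretches more easily, so the lists were also cut to their 1000 peaks of highest fold. Regions with a neighbour were then 63.3% and 60.7% for FMR1 and 24.9% and 30.7% for LIN28. The shares in stretches of 5 or more were 30.6% and 25.9% for FMR1 and 1.11% and 0% for LIN28, or 28.2% ± 3.28 against 0.553% ± 0.782 (SD, n = 2 libraries per protein). The libraries of the proteins did not overlap in either setting. With 2 libraries against 2 the exact two-sided permutation p was 0.333, the smallest possible (adjusted p = 0.333 over 8 such comparisons). The 2 libraries of a protein differ in antibody and in cells, so the SD is not a replicate error. The test treats them as exchangeable and ignores the match of wild-type and tagged libraries. The same limit holds for the later tests of 2 against 2.

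**Figure D3:**
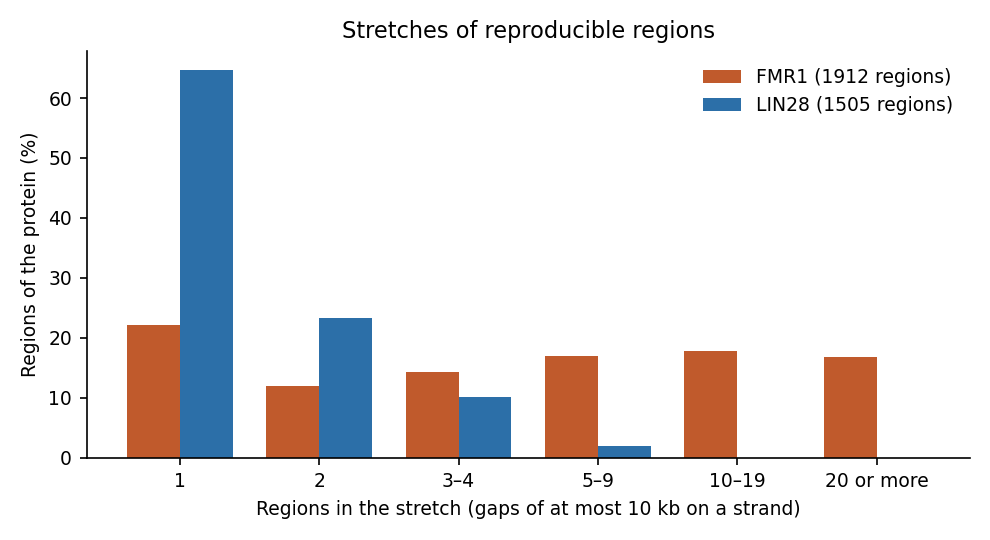
Share of reproducible regions (%) by the number of regions in their stretch, for FMR1 (orange, 1912 regions) and LIN28 (blue, 1505 regions). Stretches of a single region hold 22.1% of FMR1 and 64.7% of LIN28 regions, and only FMR1 has regions in stretches of 10 or more.

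The longest FMR1 run held 49 regions over 68.7 kb at chrX:53561652-53630364 (minus strand). Its FMR1 regions had log2 folds from 3.02 to 5.34 in wild type (median 3.86) and from 3.11 to 6.01 in FLAG (median 4.46). LIN28 had just 2 reproducible regions in this run, 1 of them shared, although LIN28 V5 placed 11 significant peaks there beside 117 of FMR1 FLAG. Of the 49 regions, 23 lay at a significant tag-only peak. A run of 30 regions over 48.5 kb at chrX:41043290-41091771 (plus strand) had a median log2 fold of 4.10 in wild type and 4.35 in FLAG. It held 0 reproducible LIN28 regions, with 0 significant peaks in LIN28 wild type and 3 in LIN28 V5, and 3 of its 30 regions lay at a tag-only peak. A run of 24 regions at chr1:39876592-39924117 (plus strand) also had 0 reproducible LIN28 regions and a single significant peak in each LIN28 library. The 24 regions at chrX:153578145-153595169 (minus strand) were packed into 17.025 kb, with 2 LIN28 regions among them. Thus FMR1 runs of like size differed in how much LIN28 they carried.

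The run at chr14:102452024-102510828 (plus strand) was one where both proteins were dense. It held 44 reproducible FMR1 regions over 58.8 kb and 9 reproducible LIN28 regions, of which 5 were shared. The longest LIN28 run of the data, 8 regions over 28.6 kb from 102449767 to 102478390, lay across its beginning. The LIN28 regions were few but not weak. The highest in LIN28 V5, at 102466623 to 102466724, had a log2 fold of 4.98 in LIN28 wild type and 7.55 in LIN28 V5, with FMR1 significant in wild type alone at 3.10. The LIN28 region at 102471099 to 102471170 had 4.49 and 5.17, with no significant FMR1 peak in either library. At 102496181 to 102496273, a shared region, FMR1 had 5.09 and 4.93 and LIN28 had 3.29 and 4.55. At 102506606 to 102506709, also shared, FMR1 had 4.31 and 4.54 and LIN28 had 5.47 and 4.83. In the other 3 shared regions the order of the folds differed between the wild-type and tagged libraries in 2. At 102457954 to 102458011, FMR1 had 3.44 and 4.52 and LIN28 had 3.98 and 3.35, and at 102474520 to 102474629, FMR1 had 3.84 and 3.81 and LIN28 had 3.25 and 4.95. With 1 library each over its own input, no order of the proteins can be read from these folds. Of the 44 FMR1 regions, 23 lay at a significant tag-only peak.

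**Figure D4:**
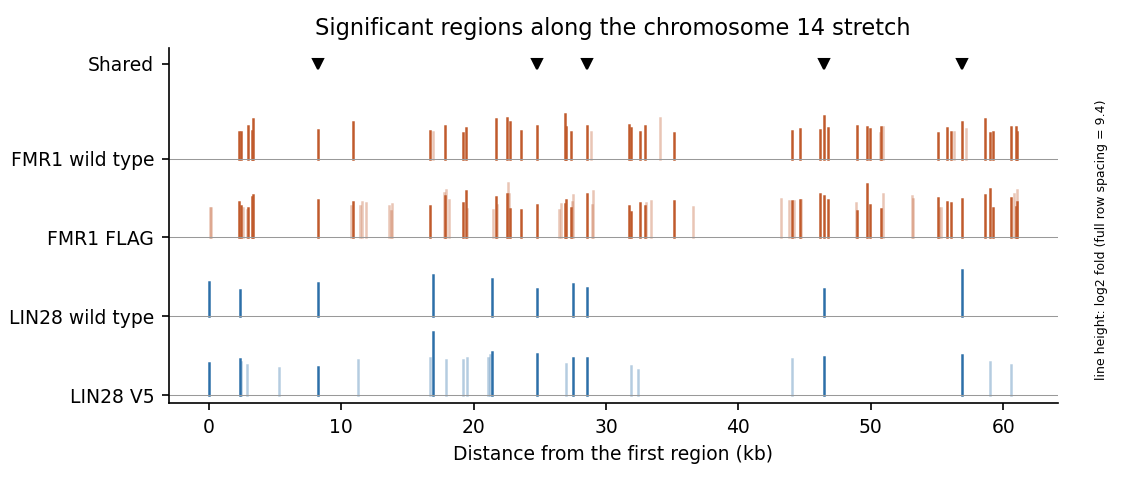
Significant regions along the chromosome 14 stretch, by distance in kb from the first region, with 1 row per library. Line height is the log2 fold, dark lines are reproducible regions of the protein, pale lines are regions of 1 library, and triangles mark the 5 shared regions. FMR1 lines fill most of the span (44 dark lines in each FMR1 library), and LIN28 has 10 dark lines in each library.

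LIN28 runs elsewhere differed in how much FMR1 they carried, and none of the next 5 held a reproducible FMR1 region. The 6 LIN28 regions packed into 1.09 kb at chr11:2017398-2018491 (minus strand) had log2 folds from 3.49 to 6.52 in wild type and from 3.72 to 6.11 in V5. Neither FMR1 library had a significant peak there, and 0 of the 6 lay at a tag-only peak. The 6 regions at chr12:53421580-53434430 (plus strand) had 17 significant LIN28 V5 peaks beside 3 of FMR1 FLAG. The 5 at chr1:116930108-116941414 (plus strand) had 17 in LIN28 V5, with folds up to 8.09, beside 0 of either FMR1 library. The 5 regions at chr11:57093527-57099189 (minus strand) had 10 in LIN28 V5 and 5 in LIN28 wild type beside 9 of FMR1 FLAG, and 4 of the 5 lay at a tag-only peak. The 4 at chr12:54629454-54635096 (minus strand) had 9 and 5 beside 0 of either FMR1 library.

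Private regions of both proteins also lay along the same strand, mostly at a distance. Of the 1263 LIN28 private regions, 6 lay within 100 nt of an FMR1 private region on the same strand, 24 within 1 kb and 83 (6.57%, 5.33% to 8.07%) within 10 kb. On the opposite strand the counts were 0, 0 and 2. Of the 1716 FMR1 private regions, 169 (9.85%, 8.53% to 11.3%) lay within 10 kb of a LIN28 private region on the same strand and 2 on the opposite strand. Same-strand neighbours were therefore many times more frequent than opposite-strand ones, yet most private regions of both proteins had no private region of the other within 10 kb. Among the 87 FMR1 stretches of 5 or more regions, 30 held a reproducible LIN28 region, or 34.5% (25.3% to 44.9%). Only 7 LIN28 private regions lay inside such a stretch, against 33 of the 57 shared regions (57.9%, 44.98% to 69.8%). Shared regions are FMR1 regions by definition, and 51.6% of all reproducible FMR1 regions lay in such stretches.

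The 57 shared regions were spread over 50 places more than 10 kb apart, of which 6 held more than 1 shared region. They were wider than private regions, with a median of 104 nt against 65 nt for FMR1 private and 74 nt for LIN28 private, and they were merged from a median of 6 significant peaks against 2. A region that needs peaks of 4 lists gets wider by that rule alone. Their FMR1 log2 folds had a median of 3.65 in wild type (lowest 3.01, highest 5.83) and 4.42 in FLAG (3.18 to 6.75). In the FMR1 private class the medians were 3.55 and 4.02. Their LIN28 log2 folds had a median of 3.70 in wild type (3.002 to 6.997) and 4.78 in V5 (3.02 to 7.92), beside medians of 4.05 and 4.67 in the LIN28 private class. FMR1 medians were thus higher in shared than in private regions in both libraries, and LIN28 medians were lower in wild type and higher in V5. These differences were not tested, and wider regions offer more peaks from which the highest is taken.

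Within the shared regions the strongest peaks of the proteins lay at a greater median distance than those of the libraries of one protein. Peaks of a shared region overlap or adjoin by the merge rule, and the median region was 104 nt wide. Short distances and frequent overlap therefore follow largely from that rule. The middles of the strongest FMR1 FLAG and LIN28 V5 peaks lay a median of 27 nt apart, and those of FMR1 wild type and LIN28 wild type 19.5 nt, with the other between-protein pairs at 24.5 and 27 nt. Between the libraries of FMR1 the median distance was 12.5 nt, and between those of LIN28 it was 6.5 nt. The strongest peaks of FMR1 FLAG and LIN28 V5 overlapped in 47 of the 57 regions, and the other between-protein pairs did so in 41 to 43. The strongest peaks of the FMR1 libraries overlapped in 45 and those of the LIN28 libraries in 52, so overlap did not separate pairs within FMR1 from pairs between the proteins. LIN28 V5 lay downstream of FMR1 FLAG in 24 regions and upstream in 32, and it lay downstream of FMR1 wild type in 31 and upstream in 25. LIN28 wild type lay downstream of FMR1 FLAG in 18 and upstream in 39, and of FMR1 wild type in 22 and 34. The order was thus upstream more often in 3 of the 4 pairs, and it was not tested. As a description over these 57 regions, which were chosen for high folds in all lists, Pearson's r of the log2 folds was 0.46 between the LIN28 libraries, 0.28 between the FMR1 libraries, 0.23 and 0.18 between FMR1 wild type and LIN28 wild type and V5, and −0.01 between FMR1 FLAG and either LIN28 library.

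The leading shared regions differed in how specific they were. The first, 22 nt at chr6:31958260-31958281 (plus strand), had log2 folds of 5.83 and 5.83 in FMR1 wild type and FLAG and of 4.93 and 5.46 in LIN28 wild type and V5. It was also significant in 10 of 14 tag-only libraries, in both RBFOX2 libraries and in both DGCR8 libraries. The second, 148 nt at chr12:922817-922964 (plus strand), had 4.87, 5.66, 5.34 and 4.79 in the same order and was significant in 3 tag-only libraries. The third, 55 nt at chr12:6696548-6696602 (minus strand), had 4.87 and 4.66 in FMR1 and 5.14 and 7.55 in LIN28, with 1 tag-only library. It lay in a run of 23 FMR1 regions. The fourth was the chromosome 14 region at 102506606 already described, with 0 tag-only libraries. The fifth, 80 nt at chr17:1577822-1577901 (minus strand), had 4.15 and 4.06 in FMR1 and 6.997 and 6.91 in LIN28, with 6 tag-only libraries and a run of 18 FMR1 regions around it. In lists of 1000 peaks per library the chromosome 6 region was the only shared one left.

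Stronger FMR1 regions met LIN28 more often, whereas stronger LIN28 regions did not meet FMR1 more often. Among the 1576 reproducible FMR1 regions whose lower log2 fold of both libraries was from 3 to under 4, 8.88% (7.58% to 10.4%) held a significant LIN28 peak. The share was 15.3% (11.8% to 19.7%) of 320 regions from 4 to under 5 and 43.8% (23.1% to 66.8%) of only 16 regions at 5 and above. Median widths were 69, 65 and 65 nt, and 43.7%, 42.2% and 43.8% of the regions lay at a significant tag-only peak. A called LIN28 peak of any fold lay at 47.9%, 53.8% and 75.0% of these FMR1 regions. What lies behind the rise in significant LIN28 peaks was not tested. The class at 5 and above is thin, and the rise over the other classes does not depend on it. Among reproducible LIN28 regions the share with a significant FMR1 peak was 18.2% (15.8% to 20.9%) of 896, 13.1% (10.3% to 16.5%) of 458 and 12.6% (8.21% to 18.8%) of 151 in the same classes. A called FMR1 peak of any fold lay at 53.7%, 41.0% and 42.4% of these LIN28 regions. The difference between the proteins was not tested, as each rests on 2 libraries.

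The proteins also differed in which chromosomes their regions fell on. Chromosome 19 held 5.12% of reproducible LIN28 regions (77, interval 4.11% to 6.35%) and 0.575% of reproducible FMR1 regions (11, interval 0.322% to 1.03%). Among all called peaks, chromosome 19 held 5.91% and 5.40% in the FMR1 libraries and 6.75% and 6.27% in the LIN28 libraries, so the LIN28 share lay slightly under that of its called peaks and the FMR1 share far under its own. Counted once per stretch, the shares of reproducible regions were 5.08% for LIN28 and 1.13% for FMR1. In single libraries, chromosome 19 held 1.01% and 1.86% of FMR1 regions and 5.17% and 4.12% of LIN28 regions, without overlap between the proteins (exact two-sided permutation p = 0.333, the smallest possible with 2 against 2). On chromosome 20, called peaks were 1.88% and 2.00% for FMR1 and 2.16% and 2.10% for LIN28. It held 2.39% of reproducible LIN28 regions and 0.523% of reproducible FMR1 regions, only 10 regions in 7 stretches for FMR1. The reverse held on chromosome X, with 8.26% of FMR1 and 3.92% of LIN28 regions, and on chromosome 14, with 7.32% and 2.99%. Called peaks on chromosome X were 3.74% and 3.64% for FMR1 and 3.66% and 3.55% for LIN28, and on chromosome 14 they were 4.06% and 4.04% against 3.54% and 3.67%. Here too the LIN28 shares lay near those of the called peaks, and the FMR1 shares lay away from theirs. Counted once per stretch, the shares of regions became 4.26% against 3.50% on chromosome X and 5.67% against 2.83% on chromosome 14, so the chromosome X difference was smaller when each run counted once.

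Tag-only sites were more common among FMR1 private and shared regions than among LIN28 private regions. A significant peak of at least 1 of the 14 tag-only libraries lay at 726 FMR1 private regions, or 42.3% (39.99% to 44.7%), at 25 shared regions, or 43.9% (31.8% to 56.7%), and at 141 LIN28 private regions, or 11.2% (9.54% to 13.0%). By single peaks, the share at tag-only sites was 37.9% in FMR1 wild type and 27.03% in FMR1 FLAG, against 16.8% and 13.3% of their peaks that were not significant. It was 14.1% in LIN28 wild type and 16.6% in LIN28 V5, against 14.6% and 11.3%. The FMR1 wild-type library, made without a tag antibody, thus had the highest share. The FMR1 libraries stood above both LIN28 libraries (exact two-sided permutation p = 0.333, the smallest possible with 2 against 2). What these sites contribute to the FMR1 lists was not tested.

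The share was higher at FMR1 private than at LIN28 private regions in each of the 14 tag-only libraries. The highest values came from the 125 to 200 kDa range. FLAG-only reached 23.1% of FMR1 private, 26.3% of shared and 4.75% of LIN28 private regions there, and V5-only 14.6%, 17.5% and 3.72%. Without regions at tag-only sites, 990 FMR1 private, 1122 LIN28 private and 32 shared regions remained, so that LIN28 then had the larger private class. LIN28 also had the larger one in lists of 1000 peaks, with 344 regions against 114. Few private regions held a significant peak of the other proteins of the series. RBFOX2 was significant at 7 FMR1 private (0.408%) and 12 LIN28 private regions (0.950%), and DGCR8 at 3 (0.175%) and 8 (0.633%). HNRNPC was significant at 4 (0.233%) and 3 (0.238%). At the 57 shared regions, RBFOX2, DGCR8 and HNRNPC were significant at 2, 2 and 0. The lengths of these lists and the shares over all called peaks are not given here, so the counts are description only.

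**Figure D5:**
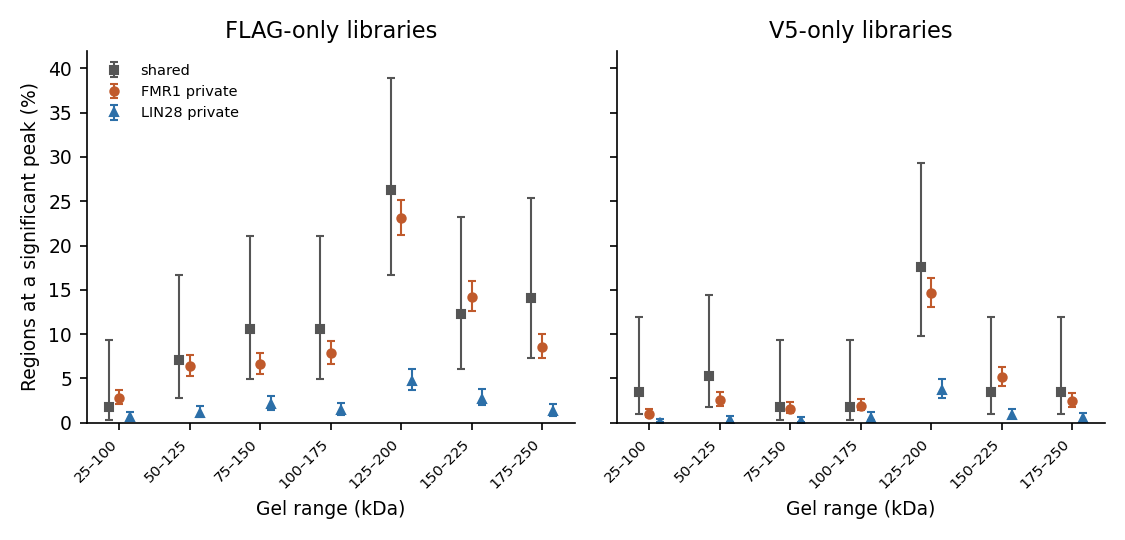
Share of regions of each class (%) at a significant peak of each tag-only library, by gel range in kDa, for FLAG-only (left) and V5-only (right). Error bars are 95% Wilson intervals. FMR1 private regions lie above LIN28 private regions in all 14 libraries, and both antibodies are highest at 125 to 200 kDa, with 23.1% and 14.6% of FMR1 private regions.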

How the data were processed

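Peak lists of 4 eCLIP libraries were compared, with 14 tag-only libraries and 7 libraries of HNRNPC, RBFOX2 and DGCR8 as context. Per the submitters' processing notes, reads were processed with cutadapt, STAR, GATK, Picard and SAMtools on hg19, and no versions are listed. How peaks were called is not given in the sources available. The deposited lists give, per peak, the authors' −log10 p, which ends at 400 and often at exactly 15.7, together with the authors' log2 fold over input. Both were taken as deposited and served only for description, ranking and filtering. Folds of different lists, each over its own input, were set side by side without a test. Peaks had been called per library, and the depth is unknown.

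Overlap required at least 1 nt on the same strand. Regions were merged, classed and counted with Python 3.11.15, pandas 2.3.3 and scipy 1.17.1. The code was tested on simulated data. Named regions are the 5 per class with the highest value of the lowest log2 fold over the defining libraries, at most 1 per 100 kb of a strand. Libraries and thresholds were chosen with earlier results of these data known. No genome or gene annotation of hg19 was used, so genes, transcript parts, motifs and sequences are not analysed here.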

Additional observations from a re-analysis of the deposited data

Results flagged for a closer look

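For each class of regions and each tag antibody, the 7 gel ranges were examined for a library far from the rest. In V5-only libraries the 125 to 200 kDa range stood apart in all 3 classes. It was significant at 14.6% of FMR1 private regions, where the next highest range had 5.13%. At LIN28 private regions it reached 3.72% against 0.871%, and at shared regions 17.5% against 5.26%. The FLAG-only library of that range was also the highest in each class but was not far enough from the next. Such a library was found in 3 of 6 sets of 7 values. Chance flags about 1 in 20 sets, so 0.3 would be expected. These 3 values come from 1 library and are not independent. That library also had the longest V5-only list, with 6562 significant peaks against 1915 in the next, and the part of list length in these shares was not tested.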

How the results depend on the processing

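Pairing of libraries by protein gave the highest overlap difference under all 5 settings, from 30.0 to 46.9 points. Replicates could not be paired, because each group has 1 library and the labels number no replicates. The match of wild-type and tagged libraries was not used in a test. Wild-type and tagged libraries are set side by side instead. Annotation and motif shares were not run. Region counts followed the settings closely, given here as shared, FMR1 private and LIN28 private. They were 33, 1083 and 832 at a −log10 p of at least 5; 237, 3656 and 1705 with the log2 fold minimum lowered to 2; 1, 114 and 344 in lists of 1000; 32, 990 and 1122 without tag-only sites. They were 77, 2875 and 1797 in wild-type libraries only, and 878, 15162 and 5440 in tagged libraries only. With private regions free of any called peak of the other protein, 973 and 772 were left. FMR1 private regions outnumbered LIN28 private ones except in lists of 1000 and without tag-only sites. Merging across 50 nt moved no count by over 1.5 times.

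Shares of peaks overlapping the other protein are given for FMR1 wild type, FMR1 FLAG, LIN28 wild type and LIN28 V5. They were 14.9%, 10.2%, 28.4% and 24.9% with the log2 fold minimum lowered to 2, and 4.88%, 3.71%, 9.80% and 7.99% with 50% of both peaks overlapping. They were 28.9%, 22.1%, 30.8% and 30.8% within 1 kb, 2.7%, 1.8%, 2.5% and 3.1% in lists of 1000, and 6.81%, 5.52%, 11.3% and 10.9% without tag-only sites. At a −log10 p of at least 5, FMR1 FLAG had 5.73% and LIN28 V5 12.6%. In lists of 1000, LIN28 thus no longer met FMR1 clearly more often than FMR1 met LIN28.

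Shares at tag-only sites, for shared, FMR1 private and LIN28 private regions, were 21.1%, 21.6% and 5.30% with V5-only libraries and 29.8%, 31.8% and 7.44% without the 125 to 200 kDa range. With FLAG-only libraries the private classes had 37.6% and 9.42%. Of the 15 named regions, 15 kept their class at the stricter threshold, 14 at the looser one, 14 when merged across 50 nt, 11 in lists of 1000 and 10 without tag-only sites. The settings for stretches were chosen after seeing the data. Regions in stretches of 5 or more were, for FMR1 and LIN28, 42.3% and 1.06% with gaps up to 5 kb, 61.1% and 3.65% with gaps up to 20 kb, 32.4% and 0.467% without tag-only sites, and 55.7% and 0.515% at a −log10 p of at least 5.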
